A study of Mus musculus with 2 samples.

Results

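The cells described here are C1q-high macrophages of mouse visceral adipose tissue (VAT) that carry Cx3cr1, the receptor for the membrane-bound chemokine fractalkine. They were chosen by their own counts of unique molecular identifiers (UMIs, each standing for 1 captured mRNA molecule). A cell needed a sum of at least 10 UMIs of C1qa, C1qb and C1qc, which encode the complement C1q chains made by tissue macrophages, and at least 2 UMIs of Cx3cr1. It was allowed at most 1 UMI of Lyve1, Cd209f and Fcna together, no UMI of Cd3e or Cd3d, at most 1 of Cd79a, and none of Xcr1 or Clec9a. Of 25198 filtered cells, 378 met this rule, namely 162 of 12474 in the normal-water library and 216 of 12724 in the antibiotic library. The levels of these genes are therefore a description of the selection and no finding.

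The study asked how the gut microbiota shapes immune cells of VAT. VAT was taken from wild-type C57BL/6 mice aged 15 weeks, and its CD45+ cells were enriched on magnetic beads and captured on the BD Rhapsody microwell platform together with oligonucleotide-tagged surface antibodies. Mice of the NW group drank normal water, and mice of the ABX group received an antibiotic mixture of ampicillin, vancomycin, streptomycin and colistin in the drinking water. There was 1 library per condition and the number of mice behind each library is not given in the sources used here, so no difference between NW and ABX has a replicate check, and no p-value is given. Intervals below are 95% intervals that cover counting error only.

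Macrophages of adipose tissue clear dying adipocytes, handle lipid and iron, and can release cytokines and chemokines that draw in other leukocytes. Cx3cr1 is best known from microglia, the macrophages of the brain, and from patrolling monocytes. The cytokines interleukin-1 and tumor necrosis factor are switched on through the transcription factor NF-kB, and their mRNAs are short-lived. Immediate early genes such as Fos respond within minutes to many stimuli, tissue dissociation among them, and the tissue here was digested with enzymes before capture.

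The upstream DNA of 5 inflammatory genes is shown because each was higher in the Cx3cr1+ macrophages than in macrophages without a Cx3cr1 UMI. Motifs for NF-kB, AP-1 and the TATA-binding protein can also be read in it directly. Each sequence is the 250 bases before the RefSeq transcription start (RefSeq, GRCm38.p6), written 5′ to 3′ on the strand of the gene. Capitals mark every match, on either strand, to a kB motif (GGGA, any 2 bases, then TTCC, bound by NF-kB), an AP-1 motif (TGA, any base, then TCA, bound by Fos and Jun proteins) or a TATA box (TATAAA).
Ccl12 at chr11:82101595-82101844, plus strand: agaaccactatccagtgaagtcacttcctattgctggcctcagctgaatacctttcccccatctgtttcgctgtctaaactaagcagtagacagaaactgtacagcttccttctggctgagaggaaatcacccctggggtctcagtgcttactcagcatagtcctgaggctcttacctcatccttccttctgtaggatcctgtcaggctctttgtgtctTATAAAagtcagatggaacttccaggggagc
Il1b at chr2:129371140-129371389, minus strand: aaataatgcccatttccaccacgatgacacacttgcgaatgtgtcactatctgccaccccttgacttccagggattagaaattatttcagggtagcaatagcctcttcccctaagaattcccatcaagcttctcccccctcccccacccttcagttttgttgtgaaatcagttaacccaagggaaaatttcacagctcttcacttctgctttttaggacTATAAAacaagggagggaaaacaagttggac
Cxcl2 at chr5:90903649-90903898, plus strand: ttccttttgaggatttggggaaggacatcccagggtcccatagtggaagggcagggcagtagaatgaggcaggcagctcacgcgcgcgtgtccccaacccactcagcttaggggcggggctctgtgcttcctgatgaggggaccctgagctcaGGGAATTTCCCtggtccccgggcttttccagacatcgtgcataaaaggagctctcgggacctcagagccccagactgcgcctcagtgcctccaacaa
Tnf at chr17:35202008-35202257, minus strand: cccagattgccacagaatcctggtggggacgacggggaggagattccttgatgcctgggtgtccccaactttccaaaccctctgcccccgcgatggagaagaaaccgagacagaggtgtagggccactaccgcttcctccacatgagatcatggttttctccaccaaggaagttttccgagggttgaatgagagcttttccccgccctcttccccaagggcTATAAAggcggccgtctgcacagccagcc
Il1a at chr2:129309973-129310222, minus strand: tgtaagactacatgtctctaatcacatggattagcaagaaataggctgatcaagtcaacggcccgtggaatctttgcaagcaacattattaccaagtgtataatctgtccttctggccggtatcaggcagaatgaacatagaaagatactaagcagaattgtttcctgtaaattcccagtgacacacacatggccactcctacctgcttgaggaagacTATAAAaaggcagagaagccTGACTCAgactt

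The kB letters were found in Cxcl2, where 2 overlapping matches span positions -97 to -87 from the start. TATAAA was found in Ccl12 and Il1b at -31 to -26, in Tnf at -29 to -24 and in Il1a at -32 to -27. Il1a also held the AP-1 letters at -12 to -6. Among all 32851 promoter windows of the same length, 1.21% held the kB letters, 6.75% the AP-1 letters and 12.4% the TATA letters. A match is a description of these letters and not of binding, and no match says only that these letters are not in the window.

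In the GENCODE M21 annotation (GRCm38), all 5 markers given for these cells are protein-coding genes. Cx3cr1 lies at chr9:119901616-120069879 on the minus strand, Ccl12 at chr11:82101845-82103400 on the plus strand and Il1b at chr2:129364570-129371139 on the minus strand. Cxcl2 lies at chr5:90903871-90905938 on the plus strand, so that the last bases of its printed window fall into its annotated first exon, and Tnf lies at chr17:35199381-35202007 on the minus strand.

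The Cx3cr1+ macrophages were deeply sampled, which the minimum UMI counts of the rule favour. The median was 5892.5 gene UMIs per cell in NW and 4803.5 in ABX, with 2255 and 1940 genes and 5.88% and 6.48% mitochondrial UMIs. The cells contributed 972426 UMIs in NW and 1099644 in ABX in all. No barcode met the rule in both libraries, while 196 barcodes passed the cell filter in both. All 9 macrophage genes checked outside the rule were detected in both libraries, among them Csf1r, the receptor for the growth factor that keeps macrophages alive, at 2451.6 CPM in NW and 2561.7 in ABX. CPM, the level used throughout, is the UMIs of a gene per 1000000 gene UMIs, both summed over the cells of a group in a library. Markers of B, T, NK and innate lymphoid cells were low by comparison. The 9 B and plasma cell genes outside the rule summed to 1279.3 and 1756.9 CPM, against 35612.5 and 38114.4 in B cells. The 11 T, NK and innate lymphoid genes summed to 126 and 206. The 10 fibroblast and mesothelial genes were not low in ABX, at 616 against 116 in NW and 774 over all filtered ABX cells. The 8 adipocyte genes summed to 90.5 and 218, against 96 and 143 over all filtered cells.

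These cells made up 1.3% of filtered cells in NW (1.11 to 1.51) and 1.7% in ABX (1.48 to 1.94), a ratio of 1.31 (1.07 to 1.6). Among C1q-high cells they were 3.11% in NW (2.66 to 3.62) and 5.04% in ABX (4.4 to 5.73), a ratio of 1.62 (1.32 to 1.97). The direction was not particular to them. Cx3cr1-negative macrophages, which have the same C1q minimum and at most 1 UMI of Lyve1, Cd209f and Fcna but no Cx3cr1 UMI, were 6.31% of filtered cells in NW and 8.95% in ABX, a ratio of 1.42 (1.3 to 1.55). Lyve1-program macrophages, which carry at least 2 UMIs of Lyve1, Cd209f and Fcna, went the other way, from 33.7% in NW to 22.4% in ABX, a ratio of 0.665 (0.639 to 0.693). Cells with at least 2 Cx3cr1 UMIs but a C1q sum under 10 were 0.505% and 0.479%, a ratio of 0.949 whose interval spans 1 (0.668 to 1.35).

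Compared with Cx3cr1-negative macrophages of the same library, the Cx3cr1+ macrophages carried a broad set of inflammatory mRNAs. The 4 markers that the rule did not use were all far higher, and the interleukin-1, chemokine and NF-kB feedback genes went with them. Of 8190 genes with at least 100 UMIs summed over both groups and libraries, 507 (6.19%) were at least 1.5-fold higher in both libraries and 380 (4.64%) at least 1.5-fold lower. These cells were chosen on their own counts, so these ratios are descriptions.

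**Figure D1:**
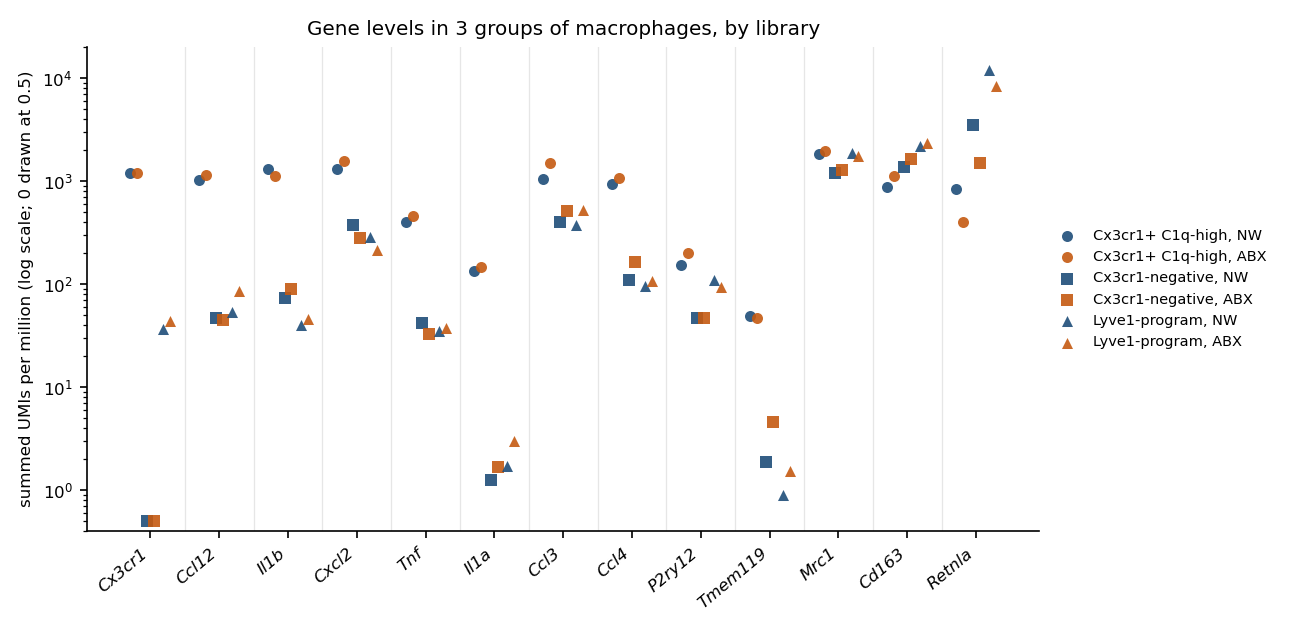
CPM (log axis; a level of 0 is drawn at 0.5) of 13 genes in Cx3cr1+ C1q-high, Cx3cr1-negative and Lyve1-program macrophages, with NW in blue and ABX in orange and 1 point per library. Ccl12, Il1b, Tnf and Il1a lie far above the other macrophages in both libraries (Il1b at 1302.9 and 1125.8 against 73.5 and 88.9 in the Cx3cr1-negative cells), while Retnla lies below them.

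The interleukin-1 genes showed some of the widest gaps. Il1b, the secreted cytokine that needs inflammasome cleavage, stood at 1302.9 CPM in NW and 1125.8 in ABX, against 73.5 and 88.9 in Cx3cr1-negative macrophages. That is 17.7-fold in NW (15.4 to 20.5) and 12.7-fold in ABX (11.3 to 14.3). Its sister Il1a, which acts largely from the cell surface or from dying cells, stood at 133 and 148 against 1.26 and 1.69, which is 106-fold in NW (40.3 to 393) and 87.5-fold in ABX (41.5 to 221). Il1a was concentrated in few cells, with a UMI in 21 of 162 cells in NW and 33 of 216 in ABX, and no UMI in any B cell.

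Tnf, the founding member of its cytokine family, was at 404 in NW and 455 in ABX, against 42.4 and 32.9. Tnfsf9, which encodes the ligand of the T cell co-stimulatory receptor 4-1BB, was at 119 and 152 against 15.4 and 11.9. Osm, which encodes the cytokine oncostatin M, showed a smaller gap of 2.39-fold and 3.35-fold. Of the 11 inflammatory cytokine genes with enough UMIs, out of 18 listed, 6 were past 1.5-fold higher and 1 lower, and their median log2 ratio was 1.26 in NW and 1.25 in ABX. The median of all genes considered was 0.00 and -0.01. The gene on the lower side was Il1rn, which encodes the interleukin-1 receptor antagonist, at 15.4 and 7.28 against 25.1 and 11.6, from 15 UMIs in NW and 8 in ABX. Il6, Il12b and Il23a were nearly absent, with 3, 0 and 0 UMIs in NW and 14, 0 and 2 in ABX.

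Chemokine genes were mostly on the higher side, with a few lower. Ccl12, a ligand of Ccr2 on monocytes, was at 1024.2 CPM in NW and 1137.6 in ABX against 47.1 and 44.8, or 21.7-fold (18.3 to 26) and 25.4-fold (21.7 to 29.8). Its neighbours in function Ccl2 and Ccl7 were 5.44-fold and 8.13-fold higher in NW and 5.9-fold and 16.7-fold in ABX. Cxcl2, which attracts neutrophils, was at 1322.5 and 1574.1 against 372 and 278. Ccl3 and Ccl4, which attract monocytes and T cells, were 2.6-fold and 8.68-fold higher in NW and 2.93-fold and 6.57-fold in ABX. Ccl8, another monocyte attractant, was 2.72-fold and 4.94-fold higher, at 298 and 411, while its level in Lyve1-program macrophages was 358 and 274. Cxcl10, the interferon-induced ligand of Cxcr3, was at 132 and 110 against 6.28 and 12.3, with 46.1% of its UMIs in NW from 1 cell.

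Ccl6 and Ccl9 were lower in the Cx3cr1+ cells. Ccl6 stood at 1071.5 in NW and 677 in ABX against 3153.5 and 2630.1, and Ccl9 at 691 and 485 against 1749.5 and 1468.4. Of 19 chemokine genes with enough UMIs, out of 23 listed, 12 were past 1.5-fold higher and 3 lower, the last of these being Cxcl12. Among chemokine receptors, Ccr1 was 6.51-fold and 7.75-fold higher, Ccr2 2.15-fold and 1.52-fold, and Cxcr4 was lower at 259 and 336 against 508 and 584.

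Genes that NF-kB induces and that feed back on it were high as well. Nfkbiz, a nuclear co-factor of NF-kB, was at 1233.0 CPM in NW and 1185.8 in ABX against 174 and 134. Nfkbia, the cytoplasmic inhibitor, was at 1854.1 and 1944.3 against 650 and 489, and Tnfaip3, which encodes the ubiquitin-editing inhibitor A20, at 502 and 535 against 101 and 76.5. Ptgs2, the inducible cyclooxygenase of prostaglandin synthesis, was 13.1-fold and 11.5-fold higher, from 100 UMIs in 17 cells and 58 UMIs in 15 cells. Of 22 NF-kB genes with enough UMIs, 12 were past 1.5-fold higher and none lower, with medians of 0.78 and 0.86 (log2). The NF-kB subunit genes differed less, with Nfkb1 at 1.56-fold in NW and 1.33-fold in ABX, Rel at 1.52-fold and 1.34-fold and Relb at 1.33-fold and 1.24-fold. Bcl2a1b and Bcl2a1d, survival genes so alike that their reads are uncertain between them, were 3.22-fold and 3.62-fold higher in NW and 3.16-fold and 2.76-fold in ABX.

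Most genes for sensors of microbial products stayed within 1.5-fold, and the exceptions were higher. Tlr2, the receptor for bacterial lipoproteins, was at 280 and 237 against 55.3 and 47.7. Cd14, its co-receptor and that of Tlr4, was at 1119.9 and 1174.0 against 446 and 587, and Nlrp3, the inflammasome sensor upstream of interleukin-1 cleavage, at 271 and 309 against 52.8 and 63.2. Of 23 sensor genes with enough UMIs, these 3 and Tlr1 were past 1.5-fold higher and none lower. Tlr4, the lipopolysaccharide receptor, was at 47.3 and 43.7 against 43.7 and 52.5.

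Immediate early genes moved with this inflammatory set and must be read beside it. The 30 listed immediate early and heat shock genes took 5.28% of the UMIs of Cx3cr1+ macrophages in NW and 5.35% in ABX, against 2.95% and 2.66% in Cx3cr1-negative macrophages, 2.68% and 2.49% in Lyve1-program macrophages and 1.59% and 1.4% in B cells. Of 29 with enough UMIs, 20 were past 1.5-fold higher and none lower. Egr1 was at 4837.4 and 4431.4 against 1093.7 and 660, and Fos at 7076.1 and 6871.3 against 3266.9 and 2724.8. The heat shock genes Hspa1a and Hspa1b, near-identical copies, were not past 1.5-fold in either direction, with Hspa1a at 2909.2 and 2876.4 against 2995.2 and 3233.9. 

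Cx3cr1-negative macrophages were therefore also compared after matching them to the Cx3cr1+ cells on the share of UMIs from these genes, an alternative added after seeing the data. The ratios of the inflammatory genes became smaller, and each of those named next stayed above 1.5-fold. Taking the library with the ratio nearer to 1, Ccl12 went from 4.44 to 2.36 on the log2 scale, Il1b from 3.66 to 1.66, Tnf from 3.25 to 2.14 and Cxcl2 from 1.83 to 0.87. Il1a went from 6.45 to 4.86 and Cxcl10 from 3.16 to 0.89. With matching, 540 genes were past 1.5-fold higher and 326 lower. The part of these immediate early genes in the inflammatory levels was not tested.

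**Figure D2:**
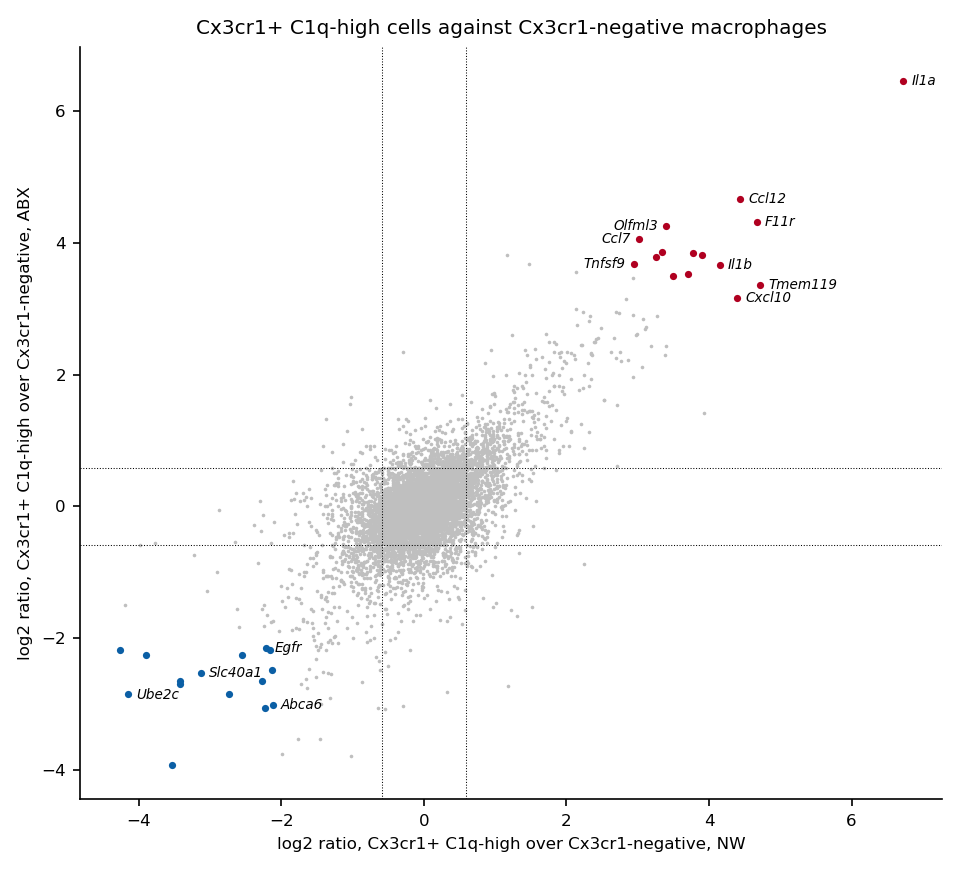
Log2 ratio of summed CPM, Cx3cr1+ over Cx3cr1-negative macrophages, in NW (horizontal) and ABX (vertical), with 1 point per gene, dotted lines at 1.5-fold, and the 15 highest (red) and 15 lowest (blue) genes coloured. Il1a stands apart at 6.72 in NW and 6.45 in ABX, and Ccl12 follows at 4.44 and 4.67.

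Beside the cytokines, several genes of other kinds stood among the 15 highest ratios. F11r, which encodes the junctional adhesion molecule JAM-A, was at 80.2 CPM in NW and 102 in ABX against 3.14 and 5.08, or 25.5-fold (13.2 to 55.3) and 20-fold (12.5 to 33.6). Pmepa1, an inhibitor in TGF-beta signalling, was at 319 and 361 against 21.4 and 25.7, and Itga6, the laminin-binding integrin alpha 6 chain, at 187 and 201 against 18.5 and 13.8. After matching on the immediate early share, the log2 ratio nearer to 0 went from 4.32 to 3.41 for F11r and from 3.81 to 3.09 for Pmepa1. Ch25h, which makes 25-hydroxycholesterol, was 13.6-fold and 14.3-fold higher, and Pald1, a phosphatase-domain protein, 11.3-fold in each library, from 38 UMIs in NW and 45 in ABX.

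Genes known from microglia were higher too. Tmem119, a membrane protein used as a microglia marker, was at 49.4 CPM in NW and 47.3 in ABX against 1.88 and 4.6, from 48 UMIs in 31 cells and 52 UMIs in 34 cells. P2ry12, the purinergic receptor through which microglia sense nucleotides, was 3.25-fold and 4.24-fold higher. Siglech, Fcrls, Olfml3, P2ry13, Gpr34 and Trem2 were on the same side, so that 10 of 16 listed genes with enough UMIs were past 1.5-fold higher and 1 lower. Sall1, the transcription factor that defines microglia, had no UMI in any of the 378 cells.

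TGF-beta signalling maintains the microglial program. Of 15 listed interleukin-10 and TGF-beta genes with enough UMIs, 5 were past 1.5-fold higher and none lower. The higher ones were Tgfbr1, Skil, Smad7, Socs3 and Il10. The median log2 ratio of the list was 0.65 in NW and 0.42 in ABX. Tgfbr1 was at 217 and 252 CPM against 55.3 and 54.5. The inhibitors Skil and Smad7 were 5.28-fold and 7.25-fold higher in NW and 5.62-fold and 4.67-fold in ABX. The ligand gene Tgfb1 was at 78.2 and 56.4 against 56.5 and 53.7. Il10, the anti-inflammatory cytokine, was at 28.8 and 30.9 against 10.4 and 2.42, from 28 UMIs in 7 cells and 34 UMIs in 10 cells.

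Interferon-stimulated genes were higher for a part of the list. Of 21 with enough UMIs, 9 were past 1.5-fold higher and none lower. Ly6e, a surface protein that restricts viral entry, was at 1153.8 and 1237.7 against 388 and 375. Among the classical genes, Ifit2 was at 28.8 and 46.4 against 1.88 and 17.4, while Isg15 had only 16 and 15 UMIs in all.

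Among the listed genes, those past 1.5-fold lower included members of the scavenger, lipid, iron and proliferation lists. Cd36, the fatty acid scavenger receptor, was at 1032.5 CPM in NW and 993 in ABX against 3213.8 and 3370.7. Plin2, which coats lipid droplets, was 0.367 and 0.391 of the Cx3cr1-negative level, and Lgals3, which encodes galectin-3, 0.319 and 0.163. Of 18 genes of lipid-associated macrophages with enough UMIs, 9 were past 1.5-fold lower, and 2 higher, Trem2 and Cd9. Trem2, the lipid-sensing receptor of that program, is also one of the microglia genes above.

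Slc40a1, which encodes ferroportin, the exporter of iron from macrophages, was at 16.5 and 31.8 against 144 and 184, that is 0.114 (0.0647 to 0.187) and 0.173 (0.12 to 0.243) of their level. Of 15 iron and heme genes, 5 were past 1.5-fold lower and none higher. Selenop, which carries selenium, was 0.558 and 0.606 of the Cx3cr1-negative level, and Clec10a, a galactose-binding lectin, 0.385 and 0.312. Cd163, the haemoglobin scavenger receptor, was at 876 and 1122.2 against 1360.0 and 1619.5, under 1.5-fold in ABX. Of 17 resident scavenger genes with enough UMIs, 7 were past 1.5-fold lower and 1 higher, Mrc1, the mannose receptor, at 1836.6 and 1949.7 against 1196.1 and 1269.7.

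Among the 15 lowest ratios, Atp6v0d2, a subunit of the lysosomal proton pump, was at 11.3 and 11.8 against 122 and 76.8. Of these 15 genes, 8 rested on at most 4 UMIs in each library in the Cx3cr1+ cells. The aldo-keto reductase gene Akr1b8 had 2 and 1 UMIs, with ratios of 0.0862 (0.0102 to 0.322) and 0.0659 (0.00164 to 0.382), and Prg4, which encodes lubricin, had 1 and 2 UMIs, with ratios of 0.052 (0.0013 to 0.3) and 0.221 (0.0257 to 0.862). Ube2c, a cell division gene, had 2 UMIs in each library, with ratios of 0.0564 (0.00676 to 0.209) and 0.139 (0.0164 to 0.527). For the proliferation list, 7 of 10 genes with enough UMIs were past 1.5-fold lower and none higher. Mki67 was at 39.1 in both libraries against 118 and 59.8.

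Antigen presentation genes differed less. H2-Aa, a chain of MHC class II, was at 7991.4 CPM in NW and 7057.7 in ABX against 11777.1 and 12520.5. Of 11 MHC class II genes with enough UMIs only H2-Eb1 was past 1.5-fold in both libraries, on the lower side. Receptors for microbial metabolites, including those for short-chain fatty acids, were sparse, with 12 listed genes summing to 74 CPM in NW and 77.3 in ABX. Ffar2 had 0 and 1 UMIs, and Ffar3 none. Hcar2, which butyrate can activate, had 7 and 8. Gpr84, a receptor for medium-chain fatty acids that is named here after its values were seen, had 21 UMIs in NW and 14 in ABX, or 21.6 and 12.7 CPM against 0 and 1.21. Pparg, the lipid-activated nuclear receptor, was at 14.4 and 18.2 against 35.8 and 38.

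Against Lyve1-program macrophages, inflammatory genes were again higher, while some genes changed side or fell under 1.5-fold. Of 10773 genes, 1047 (9.72%) were at least 1.5-fold higher in the Cx3cr1+ cells in both libraries and 806 (7.48%) at least 1.5-fold lower. Il1b was 32.9-fold and 24.7-fold higher and Tnf 11.7-fold and 12.2-fold. Of 14 inflammatory cytokine genes, 10 were past 1.5-fold higher and none lower. Il1rn, lower than in Cx3cr1-negative macrophages, was on the higher side here, at 15.4 and 7.28 against 5.62 and 1.45. Of 21 chemokine genes, 11 were higher and 6 lower, and Ccl8 was past 1.5-fold in neither direction in both libraries. Of 16 microglia genes, 9 were higher and 1 lower. P2ry12 and Gpr34 were not past 1.5-fold in both libraries, at 1.42-fold and 1.45-fold in NW and 2.14-fold and 1.62-fold in ABX. Of 19 resident scavenger genes, 15 were lower and none higher, and Mrc1 was at 0.989 and 1.11 of the Lyve1-program level. Retnla, which encodes the secreted protein RELM-alpha of alternatively activated macrophages, was at 845 and 403 against 11886.4 and 8383.9. Folr2, a folate receptor of resident macrophages, was at 230 and 114 against 1843.1 and 1331.6, and 5 of 13 MHC class II genes were past 1.5-fold on the higher side in both libraries, with H2-Aa at 1.5-fold and 1.11-fold. Across the 8189 genes considered in both comparisons, 411 were higher than in both other groups of macrophages in both libraries and 246 lower.

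Within the C1q-high, Lyve1-program-low cells, the inflammatory genes did not start at the limit of the rule, and cells with more Cx3cr1 UMIs carried more of them in most steps. Il1b in NW was at 73.5 CPM in cells with no Cx3cr1 UMI, 340 with 1 UMI, 1000 with 2 to 3, 765 with 4 to 7 and 1891.4 with 8 or more. In ABX the same classes held 88.9, 528, 798, 1159.5 and 1400.4. The median depth of these classes ran from 3484 to 6420.5 UMIs in NW and from 3116 to 5384.5 in ABX. Nfkbiz went from 174 without a Cx3cr1 UMI to 1707.7 with 8 or more in NW, and from 134 to 1429.8 in ABX. Retnla went the other way, with a different course in each library. In NW it was at 3482.4, 4208.1, 1696.0, 625 and 441 in these classes, and in ABX at 1492.9, 304, 533, 392 and 292, so that in ABX it was already low in cells with 1 Cx3cr1 UMI, outside the rule. Cells just outside the rule, with 1 Cx3cr1 UMI, were 50 in NW and 82 in ABX and held Ccl12 at 165 and 383. Those just inside, with 2 UMIs, held it at 670 and 354. Across this step Il1b went from 340 to 799 in NW but from 528 to 305 in ABX. Cxcl2 went from 652 to 1159.2 in NW and from 781 to 374 in ABX. Tnf went from 150 to 152 in NW and from 202 to 236 in ABX. On the C1q side, few cells lay near the limit, with 3 and 5 cells at a sum of 10 to 12 and 3 and 1 at 7 to 9. Beyond the Lyve1 limit, 154 and 90 cells had at least 2 Cx3cr1 UMIs and at least 2 UMIs of the Lyve1 program. They held Il1b at 606 and 773 and Cd163 at 1648.0 and 1711.5. Ccl12 was at 625 and 1187.8 in them, Cxcl2 at 1132.7 and 1422.8 and Tnf at 291 and 392. The Cx3cr1+ macrophages held Ccl12 at 1024.2 and 1137.6, Cxcl2 at 1322.5 and 1574.1 and Tnf at 404 and 455. High levels of these markers were thus not limited to cells that met the rule.

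**Figure D3:**
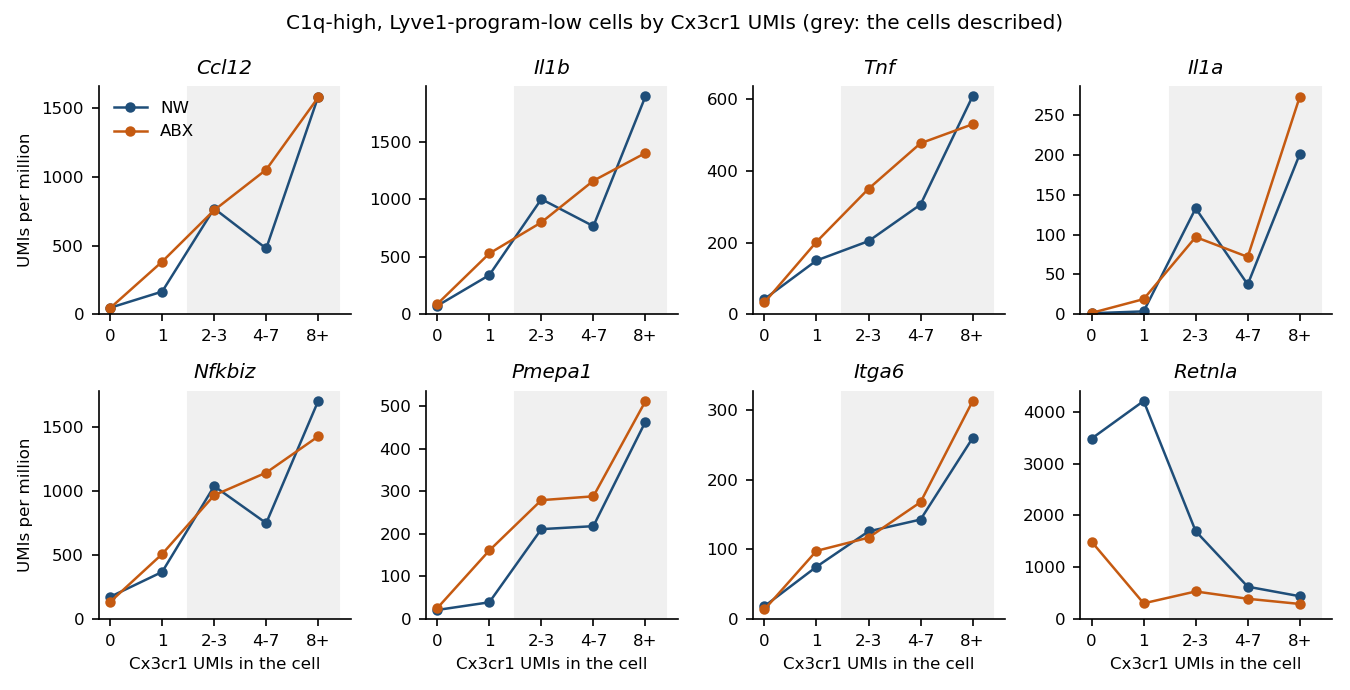
CPM of 8 genes in C1q-high, Lyve1-program-low cells grouped by the number of Cx3cr1 UMIs in the cell, with NW in blue and ABX in orange and grey marking the Cx3cr1+ macrophages. Nfkbiz in NW is at 174 without a Cx3cr1 UMI and 1707.7 with 8 or more, and Retnla is at 3482.4 in NW and 1492.9 in ABX without a Cx3cr1 UMI and at 441 and 292 with 8 or more.

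Single cells varied widely. Il1b had a UMI in 91 of 162 cells in NW and 101 of 216 in ABX, with a highest count of 84 and 68 UMIs in a cell. After thinning each cell to 2000 UMIs, which left out 10 ABX cells among these, 120 and 193 Cx3cr1-negative macrophages and 13 and 65 B cells, 48% of NW and 42.4% of ABX cells were expected to show an Il1b UMI (unthinned 56.2% and 46.8%). The same share was 7.05% and 5.22% in Cx3cr1-negative macrophages and 0.4% and 1.27% in B cells, which should lack the gene. For Ccl12 the thinned shares were 38.5% and 42.1% (unthinned 48.1% and 53.7%) against 0.641% and 0.482% in B cells, and for Tnf 31.5% and 37.4% (unthinned 45.1% and 50.5%) against 0.529% and 2.76%. The median depth of the B cells was 2618 and 2741 UMIs. Retnla was found in 58.6% and 31.3% of the Cx3cr1+ cells (unthinned 88.9% and 58.8%), little above the 50.9% and 25.4% of B cells.

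Many cells carried several of the markers. Of Ccl12, Il1b, Cxcl2 and Tnf, at least 2 were detected in 66.7% of NW cells (58.8 to 73.9) and 63% of ABX cells (56.1 to 69.4). After thinning these shares were 52.5% and 53.9%, against 6.9% and 3.81% in Cx3cr1-negative and 4.4% and 3.72% in Lyve1-program macrophages. All 4 were found in 21 NW and 36 ABX cells, and none of them in 23 and 33. Taken separately, these genes were detected in 45.1% (Tnf) to 56.2% (Il1b) of NW cells. In ABX the range was 46.8% (Il1b) to 53.7% (Ccl12). The share with at least 2, and its contrast with the other macrophages, can follow from such separate shares. Whether the markers occurred together beyond these shares was not tested.

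A subset of the cells carried Ccr2, the receptor that brings monocytes into tissue. A Ccr2 UMI was present in 62 of 162 cells in NW (38.3%, thinned 28.5%) and in 53 of 216 in ABX (24.5%, thinned 19.7%), against thinned shares of 22.2% and 19.7% in Cx3cr1-negative macrophages and 4.28% and 3.44% in B cells. These cells were deeper, with median UMI counts of 7018 and 5979 against 4602.5 and 4395 without Ccr2. The interleukin-1 genes were higher in cells without Ccr2. Il1b was at 1754.6 in NW and 1306.5 in ABX without Ccr2 and at 798 and 720 with it, and Il1a at 208 in each library without and at 47.9 and 14.8 with it. Vim, which encodes the intermediate filament protein vimentin, was the other way round, at 1375.0 and 564 with Ccr2 and 286 and 187 without.

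The marker genes of these cells were at similar levels in both libraries, and the larger differences lay elsewhere. Cx3cr1 was at 1210.4 CPM in NW and 1197.7 in ABX, a log2 ratio of -0.02 (-0.13 to 0.10), which the rule itself bounds from below. None of the 5 markers was past 1.5-fold. Ccl12 had a log2 ratio of ABX over NW of 0.15 (0.03 to 0.27), Cxcl2 of 0.25 (0.15 to 0.36), Tnf of 0.17 (-0.02 to 0.36) and Il1b of -0.21 (-0.32 to -0.10). The sign for Ccl12 is not firm, since it was -0.01 when cells were weighted equally and -0.21 without the cells that carry Ccr2.

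Over all 3538 genes with at least 100 UMIs summed over the Cx3cr1+ cells of both libraries, 86 (2.43%) were at least 1.5-fold higher in ABX and 111 (3.14%) at least 1.5-fold lower. Of these, 80 and 100 remained past 1.5-fold after the cell with the most UMIs of each gene was removed in each library. Among the 7 cytokine genes with enough UMIs none was past 1.5-fold. Of 16 NF-kB genes 1 was, Ptgs2, which was lower in ABX at 52.7 against 103. Of 27 immediate early and heat shock genes 1 was lower, Klf2, a transcription factor of quiescence, at 295 in ABX against 503 in NW.

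Chemokine genes and Ccr2 showed single differences in both directions. Ccl7 was at 231 in ABX against 148 in NW, 1.56-fold (1.27 to 1.93). Cxcl1, a neutrophil attractant, was at 109 against 62.7. Ccl6 was lower in ABX, at 677 against 1071.5, as was Ccr2, at 329 against 590. Cxcl9 was at 88.2 against 8.23, but 99% of its UMIs in ABX came from 1 cell, and without the top cell of each library its log2 ratio was -1.18.

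Several genes known from monocytes were lower in ABX. Fn1, which encodes fibronectin, had 255 UMIs in 18 NW cells and 12 UMIs in 6 ABX cells, a log2 ratio of -4.59 (-5.56 to -3.76). A single NW cell held 56.1% of the NW UMIs, and the ratio without the top cells was -4.40. The 5 cells with the most Fn1 UMIs held 94.1% of them in NW and 91.7% in ABX, so the ratio rests on few cells. Vim was at 800 CPM in NW and 303 in ABX, a log2 ratio of -1.40 (-1.59 to -1.21). Vim was lower in ABX in B cells too, at 659 against 1116.8. The actin-capping gene Capg and the calcium-binding gene S100a4 were at 101 and 106 in NW against 28.2 and 34.6 in ABX. The annexin genes Anxa1 and Anxa2 were at 76.1 and 118 against 27.3 and 37.3, and Adgre5, which encodes the adhesion receptor CD97, at 111 against 34.6.

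Of the 16 listed monocyte genes, 6 had enough UMIs and all 6 were past 1.5-fold lower in ABX, with a median log2 ratio of -1.17 against -0.01 over all genes. The 10 that did not pass the minimum pointed both ways. Ear2, an eosinophil-type ribonuclease gene of monocytes, had 78 UMIs in 8 NW cells and 4 UMIs in 4 ABX cells, whereas Ly6c2, a marker of classical monocytes, had 21 and 50. Summed over the list, the level was 1606.3 CPM in NW and 708 in ABX, with 1 gene at 0 in NW and 3 in ABX, and in Cx3cr1-negative macrophages it was 1642.1 and 853.

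Without the Ccr2-carrying cells the ratios of several of these genes came nearer to 1, but not that of Adgre5. Ccr2 is itself one of the 6 monocyte genes lower in ABX, so leaving out its cells removes a part of the difference by construction. In NW, 248 of the 255 Fn1 UMIs were in cells with a Ccr2 UMI, as were 83 of the 108 Adgre5 UMIs. Without the Ccr2-carrying cells the log2 ratio was -0.05 for Fn1, -0.62 for Vim, -0.57 for Capg and S100a4, -0.42 for Anxa2 and 1.66 for Anxa1. Apart from Vim, these ratios rest on few UMIs, with 7 in NW and 10 in ABX for Fn1 and 3 and 14 for Anxa1. Capg had 17 UMIs in each library, S100a4 14 in each, and Anxa2 18 and 20. With the Ccr2-carrying cells left out, 55 genes were past 1.5-fold higher and 59 lower. Vim was still past 1.5-fold lower. Adgre5 was about as low as before, at 17.1 in ABX (13 UMIs) against 48.7 in NW (25 UMIs). Its log2 ratio was -1.51 in place of -1.68. The same direction was present outside these cells for several genes. In Cx3cr1-negative macrophages the log2 ratio of ABX over NW was -2.53 for Fn1, -1.17 for Vim, -1.17 for S100a4 and -1.01 for Capg. In Lyve1-program macrophages it was -0.94 for Vim but 0.48 for Fn1. B cells had lower levels of S100a4 in ABX as well, at 45.4 CPM against 84, as they had of Vim. Capg and Anxa1 were higher in ABX in B cells, with Anxa1 at 31.3 against 24.5. Whether the lower levels are particular to macrophages was not tested.

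Other genes had lower ratios in the Cx3cr1+ cells than in Cx3cr1-negative macrophages. Gda, which encodes guanine deaminase, was at 56.4 in ABX against 151 in NW, a log2 ratio of -1.42 against -0.19 there. Eif4e3, a cap-binding translation factor gene, was at 29.1 against 77.1, with -1.41 against 0.04. Smpdl3a, a sphingomyelinase-like phosphodiesterase, was at 28.2 against 88.4, with -1.65 (-2.29 to -1.04) against -0.44 (-0.67 to -0.22). Without the Ccr2-carrying cells the log2 ratio was -0.25 for Gda (16 UMIs in NW and 20 in ABX) and -0.50 for Smpdl3a (22 and 23). It stayed at -1.44 for Eif4e3 (33 and 18). Whether these ratios differ between the cell groups was not tested, since each rests on 1 library per condition. Retnla was lower in ABX, at 403 against 845, and it was lower in B cells too, at 218 against 385. Of 15 lipid-associated genes 3 were lower, the lipoprotein lipase gene Lpl at 191 against 456, the fatty acid-binding protein gene Fabp5 at 30.9 against 76.1, and Lgals3 at 156 against 377.

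The highest ratios in ABX were those of matrix genes. Dcn, which encodes the matrix proteoglycan decorin, had 9 UMIs in NW and 219 in ABX, of which 79% came from 1 cell. Without the top cells its log2 ratio was 2.54 in place of 4.43. Mgp, a matrix protein, had 7 and 124 UMIs, with 66.1% of the latter in 1 cell. Gsn, which encodes gelsolin, had 67.5% of its ABX UMIs in 1 cell, and its log2 ratio went from 1.63 to 0.09 without the top cells. Dnase1l3, a secreted nuclease gene of macrophages and dendritic cells, went from 1.23 to -0.04.

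The 10 listed fibroblast and mesothelial genes summed to 116 CPM in NW and 616 in ABX in the Cx3cr1+ cells, with 2 and 3 of them at 0, and to 132 and 214 in Cx3cr1-negative macrophages. In Lyve1-program macrophages Dcn was 3.08 higher in ABX on the log2 scale. Over all filtered cells the fibroblast list was at 152 in NW and 774 in ABX. The 8 adipocyte genes summed to 90.5 in NW and 218 in ABX, with 1 gene at 0 in each, and Cfd, which encodes the adipocyte protease adipsin, was at 81.8 in ABX against 26.7. The part of these other-lineage markers in the differences was not tested.

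Of the remaining highest genes, Gdf15, a stress-induced cytokine of the TGF-beta family, had 50 UMIs in 33 NW cells and 197 UMIs in 47 ABX cells, or 51.4 and 179 CPM. That is 3.48-fold (2.54 to 4.85). Its log2 ratio was 1.63 without the top cells and -0.10 in Cx3cr1-negative macrophages, where its level was 385 and 359. Scd1, the fatty acid desaturase, was at 101 against 25.7, beside 620 in NW and 750 in ABX in B cells, but its log2 ratio was -0.29 when the rule was applied after thinning each cell to 2000 UMIs. Sparc, a matricellular protein that microglia also make, was at 124 against 43.2, with 37.5% of its ABX UMIs in 1 cell. Without the top cells its log2 ratio was 1.06 in place of 1.52. It was 0.37 in Cx3cr1-negative and 1.27 in Lyve1-program macrophages. Gimap3, a GTPase gene of lymphocytes, was at 90.9 against 36, beside 494 and 529 in B cells.

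**Figure D4:**
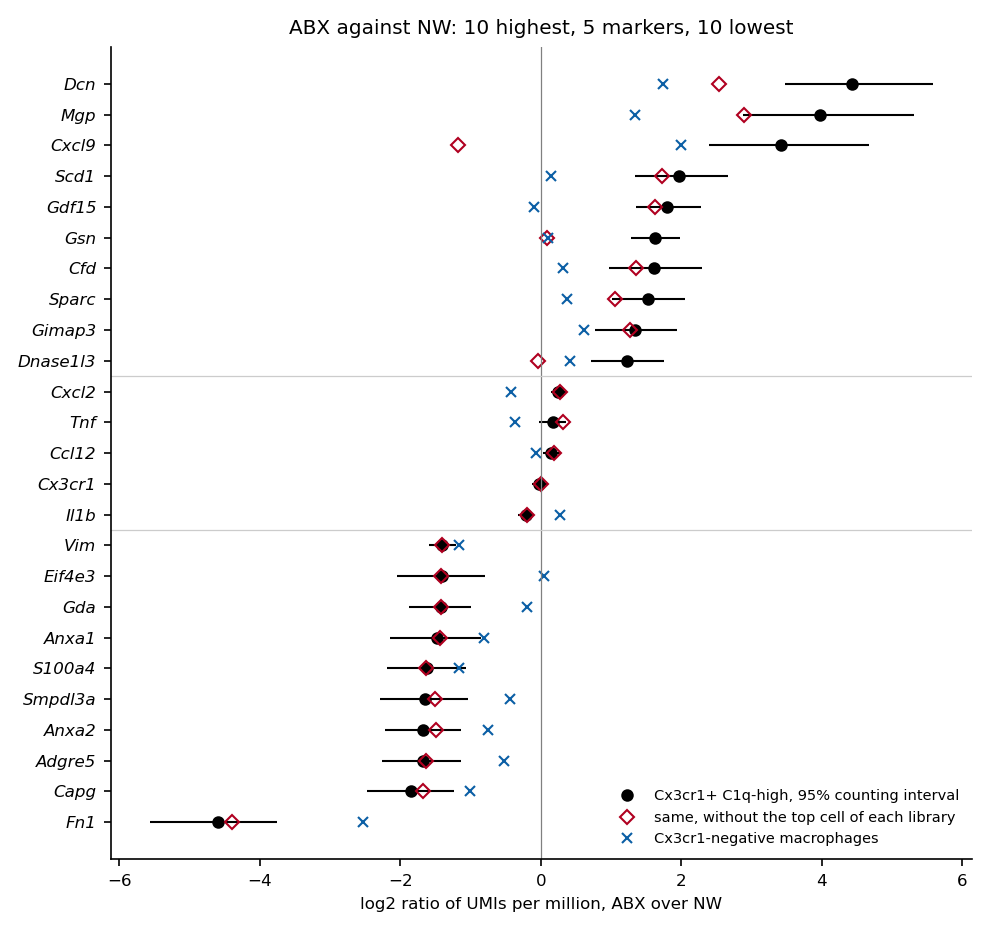
Log2 ratio of CPM, ABX over NW, for the 10 highest genes, the 5 markers and the 10 lowest genes within the Cx3cr1+ macrophages (black, with 95% counting intervals), without the top cell of each library (red) and in Cx3cr1-negative macrophages (blue). The markers sit between -0.21 and 0.25, while Dcn, Cxcl9, Gsn and Dnase1l3 move towards or past 0 without the top cell.

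The antibody counts were not used by the rule. The median CD44 count per cell, the hyaluronan receptor, was 33 in NW and 25.5 in ABX in the Cx3cr1+ macrophages, against 66 and 59 in Cx3cr1-negative and 59 and 54 in Lyve1-program macrophages. The median for CD1d, a lipid-presenting molecule, was 6 and 7 against 11 and 11 in the Cx3cr1-negative cells. NK-1.1 counts were on the other side, at 43 and 56.5 against 32 and 32. Total antibody counts were similar, with medians of 170 and 181 against 177 and 164. The quartiles overlapped for every one of these antibodies. T cell antibodies gave counts in these macrophages as well, with a TCR-beta median of 14.5 and 19.5, and 6 and 9 in B cells, so a low count is not evidence of the protein. In NW, the share of all antibody UMIs from CD44 was 29.2% in the Cx3cr1+ cells against 15.1% in Cx3cr1-negative macrophages, the reverse of the medians, and 1 Cx3cr1-negative cell of that library held 117848 NK-1.1 UMIs.

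**Figure D5:**
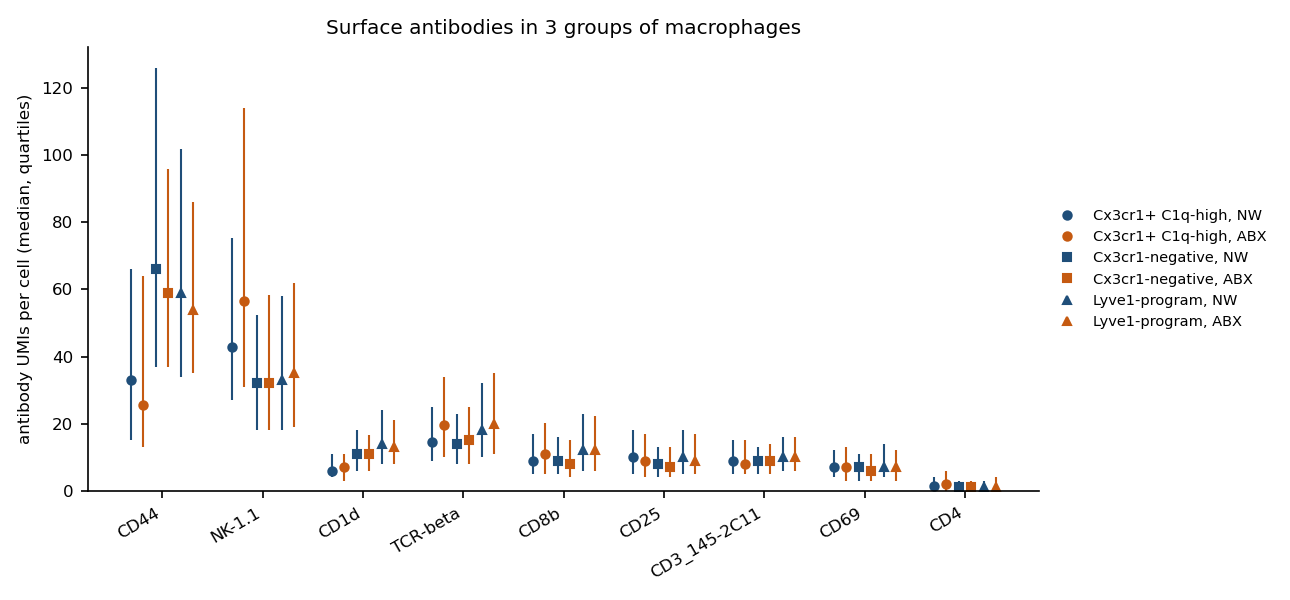
Median antibody UMIs per cell with quartiles for 9 antibodies in 3 groups of macrophages, with NW in blue and ABX in orange. CD44 is lower in the Cx3cr1+ cells (33 and 25.5 against 66 and 59 in Cx3cr1-negative cells) and NK-1.1 higher (43 and 56.5 against 32 and 32), with overlapping quartiles.

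Across the promoters of genes at least 1.5-fold higher than in Cx3cr1-negative macrophages, 12 of 518 windows (2.32%) held the kB letters printed at the start, against 6 of 390 windows (1.54%) of the lower genes and 1.21% of all. AP-1 letters were in 5.41% and 5.9% of these windows against 6.75% of all, and TATA letters in 9.07% and 9.23% against 12.4%. Among chemokine genes with a window, 4 of 17 held the kB letters, in Cxcl1, Cxcl2, Cxcl3 and Cxcl10.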

How the data were processed

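CD45+ cells of VAT from 1 NW and 1 ABX library were analysed. The authors processed the reads with the BD Rhapsody WTA Analysis Pipeline 1.8 and deposited whole-number UMI counts per cell for genes and for 10 antibodies. The submitters' processing notes also name R 3.6.0, Seurat 3.0.1 and mm10. Cells with at least 500 gene UMIs, at least 200 genes and at most 25% mitochondrial UMIs were kept. Barcodes numbered 17662 in NW and 17785 in ABX, with 79855126 and 64801767 gene UMIs, and 371 barcodes occurred in both. Counts of each group were summed per library and scaled to 1000000. With 1 library per condition no test was possible. Ratios carry exact Poisson intervals and shares carry exact Clopper-Pearson intervals, both at 95% and for counting error only. A gene counted as higher or lower past 1.5-fold, among genes with at least 100 UMIs summed over the groups compared. Shares with a UMI were computed after thinning to 2000 UMIs. B cells, with at least 2 Cd79a UMIs and no C1q UMI, gave the background. No doublets were removed, and leaving out the top 10% by Scrublet score was an alternative. Named genes were the 5 markers, list genes, the 10 highest and 10 lowest ABX over NW ratios with an interval excluding 1, and the 15 highest and 15 lowest ratios over Cx3cr1-negative macrophages. The members and gene lists were chosen with earlier results of these data known. Some listed items are not reported here. Alternatives changed the rule, filters, scaling, cell weights and depth. The computations were tested on simulated data and used Python 3.11.15, numpy 2.4.6, scipy 1.17.1, pandas 2.3.3, scanpy 1.11.5 and matplotlib 3.10.9.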

Additional observations from a re-analysis of the deposited data

How the results depend on the processing

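With 1 library per condition, no difference between NW and ABX can be told apart from a difference between the libraries, and depth limits ratios of genes with few UMIs. No paired analysis was possible because there was 1 library per group and no test. The log2 ratio of the share of cells meeting the rule, 0.39, lay between 0.25 and 0.46 in the 8 alternatives run. With the rule applied after thinning to 2000 UMIs, 70 genes were higher and 54 lower in ABX, against 86 and 111, so that the larger count turned from lower to higher, and Scd1 was at -0.29. With at least 1 UMI in each group as the only minimum, 1719 genes were higher and 1634 lower in ABX, and 1046 were higher and 645 lower than in Cx3cr1-negative macrophages. With at least 500 UMIs, these counts were 3, 10, 214 and 145, where 604 and 3197 genes were left to consider. Without cells carrying a Ccr2 UMI, an alternative chosen after seeing the data, 55 genes were higher and 59 lower in ABX. The log2 ratio there was -3.15 for Cxcl9, -0.57 for Dnase1l3, 1.66 for Anxa1 (3 UMIs in NW and 14 in ABX) and -0.21 for Ccl12. Without the top cell of each gene, also chosen after seeing the data, Cxcl9 was at -1.18 and Dnase1l3 at -0.04. Gsn was at -0.03 with at least 3 Cx3cr1 UMIs, and at 0.00 without cells holding 3 or more Dcn UMIs, which was added after seeing the data. Ccl12 was at -0.01 as a mean over cells. The cause of these differences was not tested. For single genes in ABX over NW, 322 alternative values stayed within the counting error, 74 moved beyond it and 10 changed direction. Against Cx3cr1-negative macrophages 448 stayed, 46 moved and none changed direction.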

Other observations

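Some gene groups outside the inflammatory set also differed between Cx3cr1+ and Cx3cr1-negative macrophages. Of 14 growth and tissue factor genes with enough UMIs, 3 were past 1.5-fold higher and 3 lower in both libraries. Pdgfb, a growth factor for pericytes, was at 89.5 CPM in NW and 114 in ABX against 26.4 and 20.1, and Mmp14, a membrane-bound matrix metalloproteinase, at 48.3 and 62.7 against 5.03 and 8.47. Gdf15 was on the lower side. Of 5 patrolling monocyte genes with enough UMIs, out of 10 listed, 3 were higher and 1 lower. Those higher were Nr4a1, which is also an immediate early gene, Itgal and Pou2f2, with Pou2f2 at 361 and 370 against 173 and 159. Ace and Treml4, which are also typical of patrolling monocytes, had 2 UMIs each in NW and 3 and 1 in ABX. Of 5 adrenergic and neuropeptide receptor genes, Adrb1 and Ramp1 were past 1.5-fold higher, from 25 and 38 UMIs in NW and 24 and 40 in ABX.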
